A study of Caenorhabditis elegans with 23 samples.

Results

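The 10 genes described here, of 31753 gene rows in the deposited tables, encode components of the P granules of Caenorhabditis elegans: pgl-1, pgl-2, pgl-3, glh-1, glh-2, glh-3, glh-4, meg-1, meg-2 and deps-1. A row was a member when its gene name was 1 of these names, and each name had 1 row of its own. Of all rows, 19998 had any count, the 10 members among them, and all 10 passed the filters on low values in every comparison. The values came from PAT-seq, a method that reads the 3′ end of polyadenylated RNA together with the length of its poly(A) tail. For each gene and library the tables hold the number of reads, the number of those reads that carry a tail (tailed reads) and the mean tail length of the tailed reads in nucleotides (nt).

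P granules are RNA and protein condensates that mark the germ line of the worm, lie on the nuclear pores of its germ cells for most of life, and pass to the germ cell precursors when the early embryo divides. The PGL proteins self-associate and form the scaffold, and the GLH proteins are germline RNA helicases related to Vasa. The MEG proteins are intrinsically disordered and act on the granules of the embryo, while DEPS-1 promotes granule assembly and small-RNA silencing. Many maternal mRNAs of germ cells are stored with short tails and extended when they are needed. GLD-2 is a cytoplasmic poly(A) polymerase of the germ line, CPB-3 is an RNA-binding protein of the CPEB family, and CCF-1, CCR-4, PANL-2 and PARN-1 are worm counterparts of known deadenylases.

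The series holds 23 libraries in 10 groups, each a bulk RNA extract. The second of 2 sequencing runs held embryos of N2 at the 1- and 2-cell stages, and whole young adult gld-2(q497) worms fed RNAi against ccf-1, ccr-4, panl-2, parn-1 or caf-1, or the non-targeting control RNAi pcb19, with 2 libraries each. The first run held whole young adult worms: the gld-2(q497) mutant, the cpb-3(bt17) mutant in strain YM19 (whose titles spell the gene cbp-3) and the wild-type strain N2, with 3 libraries each. All RNAi groups, the control included, therefore carry the gld-2 mutation per their labels, although the treatment text names N2 for the RNAi. Separate cultures are not stated for the libraries of a group, and the p-values then cover only how far these libraries differ, which may be technical. In bulk samples, fewer cells of a type and less RNA per cell cannot be told apart.

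Libraries held between 2.2 and 15.95 M reads (M, 1e6). The gld-2 gene itself had 2.84 to 4.65 CPM in gld-2 worms and 2.16 to 6.38 CPM in the RNAi groups, against 11.3 to 12.6 CPM in N2 worms, and cpb-3 had 26.1 to 34.4 CPM in cpb-3 worms, against 51.6 to 57.4 CPM in N2 worms (CPM, reads per M on TMM-scaled library sizes). Of all reads, 83.1 to 87.1% were tailed in gld-2 worms, 71.3 to 79.9% in cpb-3 worms and 82.9 to 89.1% in N2 worms. In embryos 62.3 and 69.8% were tailed. In the RNAi groups other than panl-2 the share lay between 53.6 and 72.2%. The panl-2 RNAi libraries stood apart from each other, with 85.1 and 61.7%, and cpb-3 replicate 3 had the lowest share of the first run, 71.3%. Summed over the 15 sperm markers with a row, gld-2 worms had 523 to 572 CPM, cpb-3 worms 86.6 to 133 CPM and N2 worms 18.1 to 25.8 CPM. Summed over 14 oocyte and maternal markers, the ranges were 2400 to 2950 CPM in gld-2 worms, 7580 to 8190 CPM in cpb-3 worms and 6230 to 6420 CPM in N2 worms. The 10 general germline markers with a row, such as him-3 and glp-1, were detected in every group. Their sum was 200 to 242 CPM in gld-2 worms, 259 to 321 CPM in cpb-3 worms and 295 to 306 CPM in N2 worms. It was 365 to 370 CPM in embryos and 181 to 189 CPM under control RNAi.

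In N2 young adults the 10 genes spanned a wide range of levels, from glh-1 at 258 ± 18.2 CPM to pgl-2 at 8.78 ± 1.01 CPM (SD, n = 3). Since PAT-seq counts 3′ ends, CPM were compared between genes without scaling to length. The descending order was glh-1, deps-1 (129 CPM), pgl-1 (84.1 CPM), glh-2 (55.1 CPM), pgl-3 (33.5 CPM), glh-3 (26.8 CPM), meg-1 (22.7 CPM), glh-4 (17.7 CPM), meg-2 (10.8 CPM) and pgl-2. Of the 9 neighbouring pairs in this order, only pgl-3 and glh-3, and meg-2 and pgl-2, overlapped between libraries. The 10 genes together made up 606 to 687 CPM of an N2 library, of which glh-1 took 39.4 to 40.2%. Mean tails in N2 lay within a narrow range, from 36.8 nt for glh-3 to 44.9 nt for pgl-3.

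The order differed in the other groups. In gld-2 worms glh-1 stood at 369 CPM and deps-1 at 165 CPM, followed by glh-2 (62.4 CPM), pgl-1 (48.3 CPM), glh-3 (40.9 CPM) and pgl-3 (37.4 CPM), 4 genes whose neighbours in the order overlapped. The lowest gene there was meg-1 with 3.52 CPM, which overlapped meg-2 (6.62 CPM). In embryos pgl-1 (189 CPM) and glh-1 (183 CPM) overlapped at the top. They were followed by deps-1 (142 CPM), glh-2 (70.1 CPM) and meg-1 (47.0 CPM), which did not overlap their neighbours in the order.

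Across the 10 group means, deps-1 varied least, with 165 CPM in gld-2 worms and 115 CPM under ccr-4 RNAi, a ratio of 1.43. The ratio of the highest to the lowest group mean was 1.89 for pgl-2, 2.04 for pgl-3, 2.02 for glh-1, 2.17 for glh-2 and 1.98 for glh-3. It was 2.75 for glh-4, 2.75 for meg-2 and 3.91 for pgl-1. The widest range was that of meg-1, with 47.0 CPM in embryos and 3.52 CPM in gld-2 worms, a ratio of 13.4. For pgl-1, meg-1 and meg-2 the highest mean was in embryos and the lowest in gld-2 worms. The second highest of each of these 3 genes was under ccf-1 RNAi, where pgl-1 overlapped the embryos and meg-1 and meg-2 did not. These means count all reads. In tailed reads alone pgl-1 was highest under ccf-1 RNAi (101 CPM) and lowest under panl-2 RNAi (46.7 CPM). Embryos then had 62.5 CPM of pgl-1 and gld-2 worms 57.1 CPM. The tailed reads of meg-1 and meg-2 were still highest in embryos (36.8 and 19.1 CPM).

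**Figure D1:**
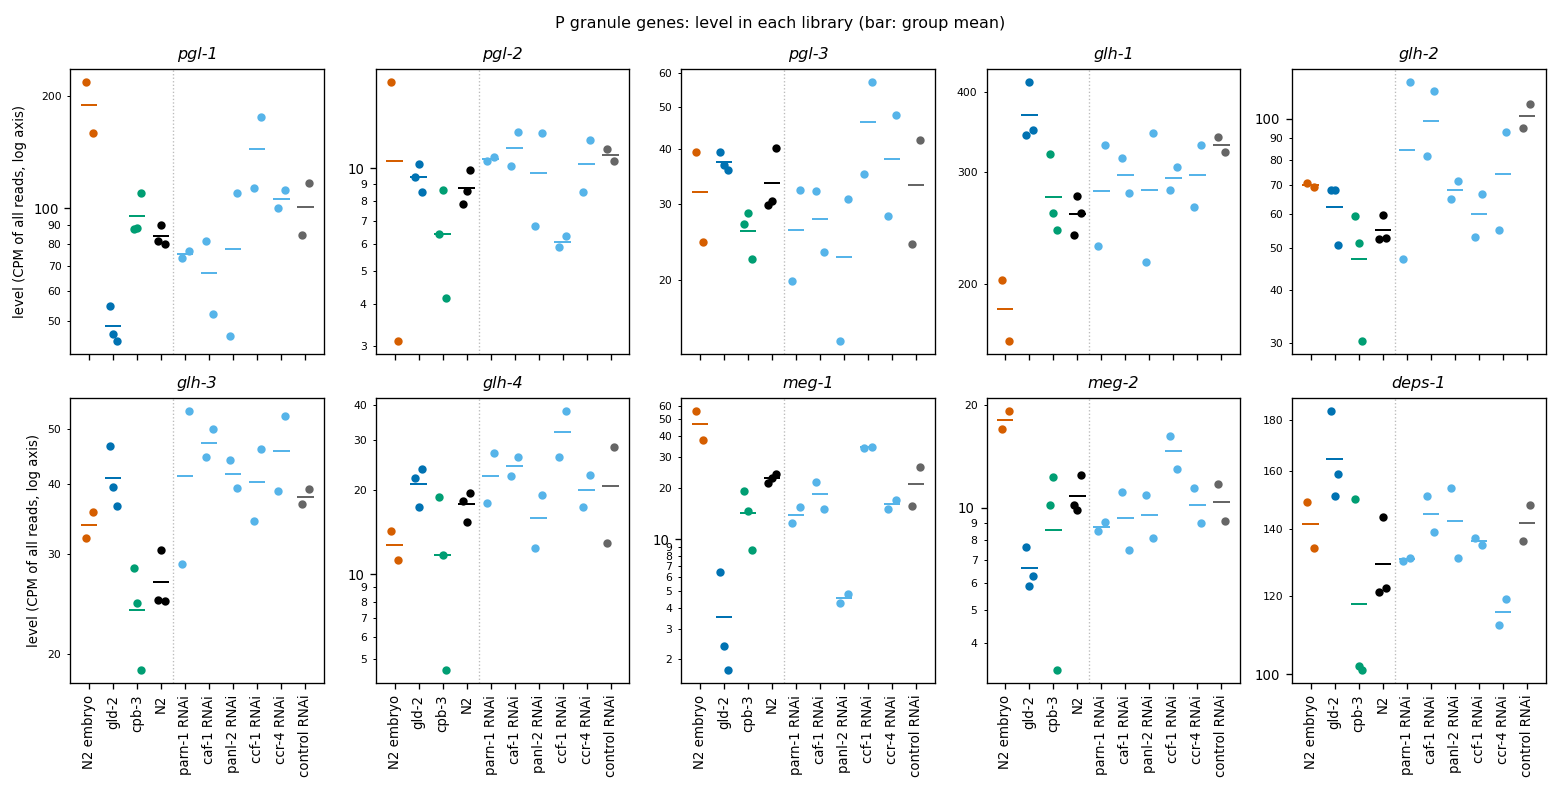
Level of each P granule gene in every library (CPM of all reads, log axis, 1 panel per gene); points are libraries, bars are group means, and the dotted line separates the embryos and the run 1 adults from the gld-2 worms on RNAi. The meg-1 panel has the widest range, with group means of 47.0 CPM in embryos and 3.52 CPM in gld-2 worms, and deps-1 the narrowest.

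The genes lie on 5 chromosomes, with coordinates from the deposited tables in build ce10. The scaffold genes are at chromosome IV 6974606 to 6977307, minus strand (pgl-1), chromosome III 8670575 to 8674966, minus strand (pgl-2), and chromosome V 4755996 to 4758405, plus strand (pgl-3). All 4 helicase genes are on chromosome I, glh-1 at 6854811 to 6857392 (plus strand), glh-2 at 6514022 to 6517308 (plus), glh-3 at 5792584 to 5795044 (minus) and glh-4 at 3727115 to 3730940 (plus), and deps-1 is on the same chromosome at 506480 to 508879 (plus). The row of meg-1 (X, 13927401 to 13929545, minus) lies 1360 bp from that of meg-2 (X, 13923004 to 13926040, minus), with no other row between them. A pair of rows overlaps another on the opposite strand: pgl-2 overlaps kin-31, and glh-1 a row that merges many genes. The sources used here do not state whether the counting used strand, or how reads shared by related sequences such as glh-1 and glh-2 were assigned, so these 3 genes are less certain than the others.

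The comparison of gld-2 worms with N2 asks what the loss of a poly(A) polymerase changes in RNA level and tail length. Of the 10 genes, 2 were lower in gld-2 worms (meg-1 and pgl-1), 2 were higher (glh-1 and glh-3) and 6 did not pass the test (edgeR's quasi-likelihood test, adjusted p under 0.05 after Benjamini-Hochberg adjustment over all genes). Of the 10357 genes tested, 14.9% were lower and 13.5% higher by the same rule, so the share called among the members, 4 of 10, stood beside 28.5% of all genes. The median log2 change was 0.19 over the members and 0.00 over all genes. Only meg-1 was also called in tail length, with shorter tails.

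For pgl-1, the founding scaffold gene, gld-2 worms had 54.8, 46.0 and 44 CPM, against 81.9, 90.4 and 80.0 CPM in N2 worms. The groups did not overlap, and pgl-1 was 0.582 times the N2 level (log2 change -0.78 ± 0.17 SE, adjusted p = 0.0025, edgeR). Its tails averaged 35.7, 37.4 and 44.8 nt in gld-2 worms, against 39.2, 37.7 and 38.1 nt in N2 worms. These overlapped, and the difference of 0.95 ± 2.63 nt (SE) was not called. The related scaffold genes were not called either: pgl-3 had 39.5, 36.8 and 35.8 CPM in gld-2 worms, against 29.8, 30.5 and 40.3 CPM in N2 worms, and pgl-2 had 8.51 to 10.3 CPM in gld-2 worms, against 7.88 to 9.88 CPM in N2 worms.

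Among the helicases, glh-1 had 342, 415 and 349 CPM in gld-2 worms, against 239, 275 and 259 CPM in N2 worms, without overlap. It was 1.45 times the N2 level (log2 change 0.53 ± 0.16 SE, adjusted p = 0.021, edgeR). The same direction was found for glh-3, with 46.8, 39.5 and 36.6 CPM in gld-2 worms, against 24.9, 30.6 and 24.8 CPM in N2 worms, 1.55 times the N2 level (log2 change 0.63 ± 0.19 SE, adjusted p = 0.019, edgeR). Both calls were lost without single libraries. Without N2 replicate 1, 2 or 3 or gld-2 replicate 2, the adjusted p of glh-1 was 0.10, 0.053, 0.073 or 0.12, and over all its alternatives 0.0013 to 0.12. For glh-3 the call was lost without N2 replicate 1 or 3 or gld-2 replicate 1 or 2, and the adjusted p over all alternatives ran from 0.0023 to 0.088. The other helicases overlapped between groups, with 50.7 to 68.4 CPM of glh-2 in gld-2 worms, against 52.6 to 59.8 CPM in N2 worms, and 17.4 to 23.6 CPM of glh-4 in gld-2 worms, against 15.4 to 19.5 CPM in N2 worms.

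The largest change was that of meg-1, whose product acts with that of meg-2 on the granules of the embryo. In gld-2 worms meg-1 had 6.43, 2.39 and 1.73 CPM, from 108, 35 and 11 reads, against 21.3, 22.7 and 24.0 CPM in N2 worms. The highest gld-2 library was below the lowest N2 library, and the level was 0.168 times that of N2 (log2 change -2.57 ± 0.36 SE, adjusted p = 5.6e-05, edgeR). The calls of meg-1 and pgl-1 held with any 1 library left out. Adjusted p then ran from 2.7e-06 to 0.00094 for meg-1 and from 0.0033 to 0.018 for pgl-1.

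Mean tails of meg-1 were 26.2, 23.2 and 22.3 nt in gld-2 worms, against 40.4, 37.0 and 40.4 nt in N2 worms. All gld-2 values were below all N2 values, and the difference was -15.4 ± 2.93 nt (SE, adjusted p = 0.015, limma). Of the 7958 genes tested, 7.98% had shorter and 0.126% longer tails, together 8.11%, and meg-1 was the 1 of 10 members called. The third gld-2 value rests on 9 tailed reads. Without N2 replicate 1 or 3 or gld-2 replicate 1 or 2 the call was lost, at a difference of -16.5 to -14.6 nt over all libraries left out in turn and an adjusted p of 0.0068 to 0.064 over all alternatives.

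The neighbouring meg-2 had 7.68, 5.88 and 6.3 CPM in gld-2 worms, against 10.2, 9.85 and 12.5 CPM in N2 worms. Its tails averaged 23.4, 26.8 and 30.4 nt in gld-2 worms, against 44, 36.9 and 37.9 nt in N2 worms. Neither measure overlapped between the groups, yet neither passed the test. The log2 change was -0.69 ± 0.29 SE (adjusted p = 0.098, edgeR; 0.047 to 0.30 over the alternatives) and the tail difference -12.7 ± 4.26 nt (SE, adjusted p = 0.11, limma; 0.012 to 0.31 over the alternatives). Without a filter on low counts the level was called (adjusted p = 0.047), and with at least 20 tailed reads behind each length the tail was called (adjusted p = 0.012).

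Tails of deps-1 were 31.6, 31.4 and 34.3 nt in gld-2 worms, against 37.0, 36.3 and 38 nt in N2 worms, without overlap but below the threshold for a call (-4.66 ± 1.78 nt SE, adjusted p = 0.16, limma; 0.076 to 0.39 over the alternatives). Its level was 184, 151 and 159 CPM in gld-2 worms, against 121, 144 and 122 CPM in N2 worms, also without overlap and not called (log2 change 0.37 ± 0.18 SE, adjusted p = 0.15, edgeR; 0.085 to 0.33 over the alternatives). Tail differences of the 7 PGL and GLH genes lay between -3.86 nt (glh-4) and 1.86 nt (glh-1), none called. Over all genes the median difference was -2.21 nt, and over the members -2.87 nt.

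**Figure D2:**
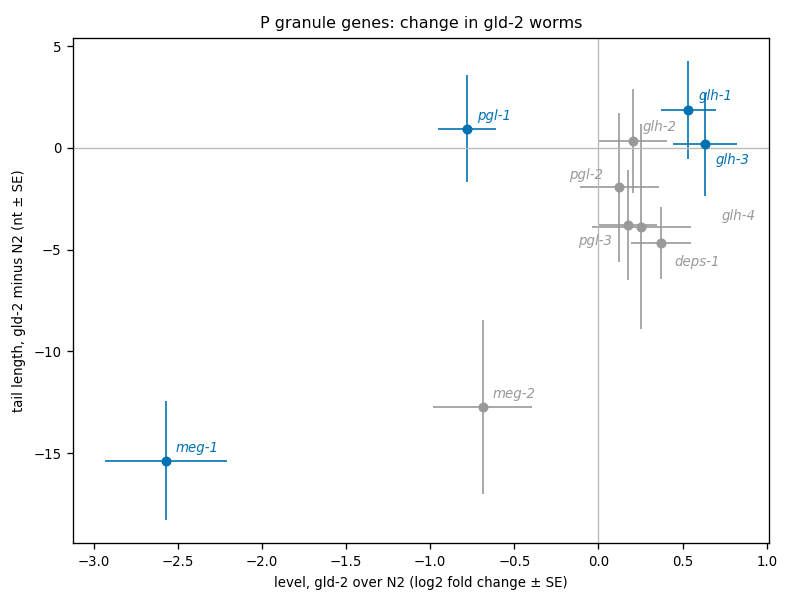
Change in level (horizontal axis, log2 fold change of gld-2 over N2) and in mean tail length (vertical axis, gld-2 minus N2, nt) of each P granule gene, with bars of 1 SE (n = 3 libraries each); blue marks genes whose level passed the test. The gene farthest from 0 on both axes is meg-1 (-2.57 and -15.4 nt), while pgl-1 lies to the left with a tail difference near 0.

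The share of a gene's reads that carried a tail was tested on the log2 odds (limma). In gld-2 worms 0 of the 10 members were called, 1 (meg-2) had an unadjusted p under 0.05, and 0.246% of the 8522 genes tested were called. For meg-2 the share was 89.9, 94.2 and 97.5% in gld-2 worms, against 97.7, 100 and 97.6% in N2 worms (adjusted p = 0.71, limma; 0.47 to 1.0 over the alternatives).

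Among 24 other P granule components and regulators, 19 had a row and were tested. The median log2 change of the 19 in gld-2 worms was -0.47, against -0.004 over all genes. Of the 19, 10 were lower and 0 higher, beside 14.9% and 13.5% of all genes. Those of smallest adjusted p were nos-2 (-2.13 ± 0.20 SE), a Nanos relative, gld-1 (-1.87 ± 0.18 SE), a translational repressor, meg-3 (-2.56 ± 0.29 SE), a paralogue of the MEG genes, and pie-1 (-2.0 ± 0.22 SE), an inhibitor of transcription in germ cell precursors, at adjusted p of 9.9e-07, 1.1e-06, 5e-06 and 5.2e-06 (edgeR). Tails of 12 of the 19 were shorter, beside 7.98% of all genes. The median difference was -8.90 nt, against -2.21 nt over all genes. The 4 of smallest adjusted p were mex-6 (-18.2 nt), mex-5 (-20.1 nt), pos-1 (-14.4 nt) and oma-1 (-15.8 nt), which encode CCCH zinc-finger proteins of the oocyte and early embryo. Of these, mex-5, pos-1 and oma-1 are also in the oocyte list, of which 13 of 14 were lower in gld-2 worms, and 11 of the 12 tested sperm markers were higher. The part of these marker levels in the P granule results was not tested.

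The comparison of cpb-3 worms with N2 shares its N2 libraries with the comparison above. In cpb-3 worms 0 of the 10 members were called in level, where 7.09% of the 10357 genes were higher and 1.69% lower (edgeR). Not 1 of the members had an unadjusted p under 0.05, and DESeq2 also called 0 members. The log2 changes ran from -0.60 for meg-1 to 0.21 for pgl-1. The values of meg-1 were 19.1, 14.6 and 8.71 CPM in cpb-3 worms, against 21.3, 22.7 and 24.0 CPM in N2 worms. These did not overlap, but the change of -0.60 ± 0.34 (SE) was not called (adjusted p = 0.31, edgeR; 0.13 to 0.54 over the alternatives). Without cpb-3 replicate 1, 1 member was called, glh-4 (log2 change -0.94, adjusted p = 0.043, edgeR; 0.043 to 0.65 over the alternatives), which stood at -0.48 with all libraries and had 11 reads in cpb-3 replicate 3. Tails were called for 0 of the 10 members and for 0% of the 7991 genes (limma), of which 689 had an unadjusted p under 0.05, and 0 of the members had one.

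In the share of tailed reads of cpb-3 worms, 0 of 10 members and 0% of the 8522 genes were called (limma). An unadjusted p under 0.05 was found for 8 of the 10 members and for 2405 of all genes. For pgl-1 the tailed share was 87.5, 59.6 and 23.8% in cpb-3 worms, against 87.6, 96.1 and 95.3% in N2 worms. All 3 cpb-3 values were below the N2 values, the first of them narrowly, and the log2 odds differed by -3.34 ± 1.03 (SE, adjusted p = 0.094, limma; 0.027 to 0.30 over the alternatives). The lowest value came from replicate 3, whose overall tailed share was the lowest of run 1. Without that library the difference in pgl-1 was -2.23 (adjusted p = 0.23, limma).

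The related pgl-3 had tailed shares of 88.3, 85.2 and 48.1% in cpb-3 worms, against 93.4, 94.8 and 97.8% in N2 worms. For meg-1 they were 68.6, 48 and 52.4% in cpb-3 worms, against 80.4, 88.0 and 88.3% in N2 worms, the smallest adjusted p (0.083, limma; 0.027 to 0.29 over the alternatives) together with meg-2, of which cpb-3 replicate 3 held 8 reads. By contrast, glh-2 had 97.4, 96.0 and 98.6% in cpb-3 worms, against 96.5, 96.3 and 97.6% in N2 worms, and the groups overlapped. Over the members the median difference was -1.88 in log2 odds, and over all genes -0.92. With genes of a mean count of at least 100 alone, 3 members were called (pgl-1, pgl-3 and meg-1, adjusted p = 0.044, 0.044 and 0.037, limma), where 720 genes were called in all. Without cpb-3 replicate 1 the same 3 members were called, at adjusted p of 0.027 to 0.042.

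**Figure D3:**
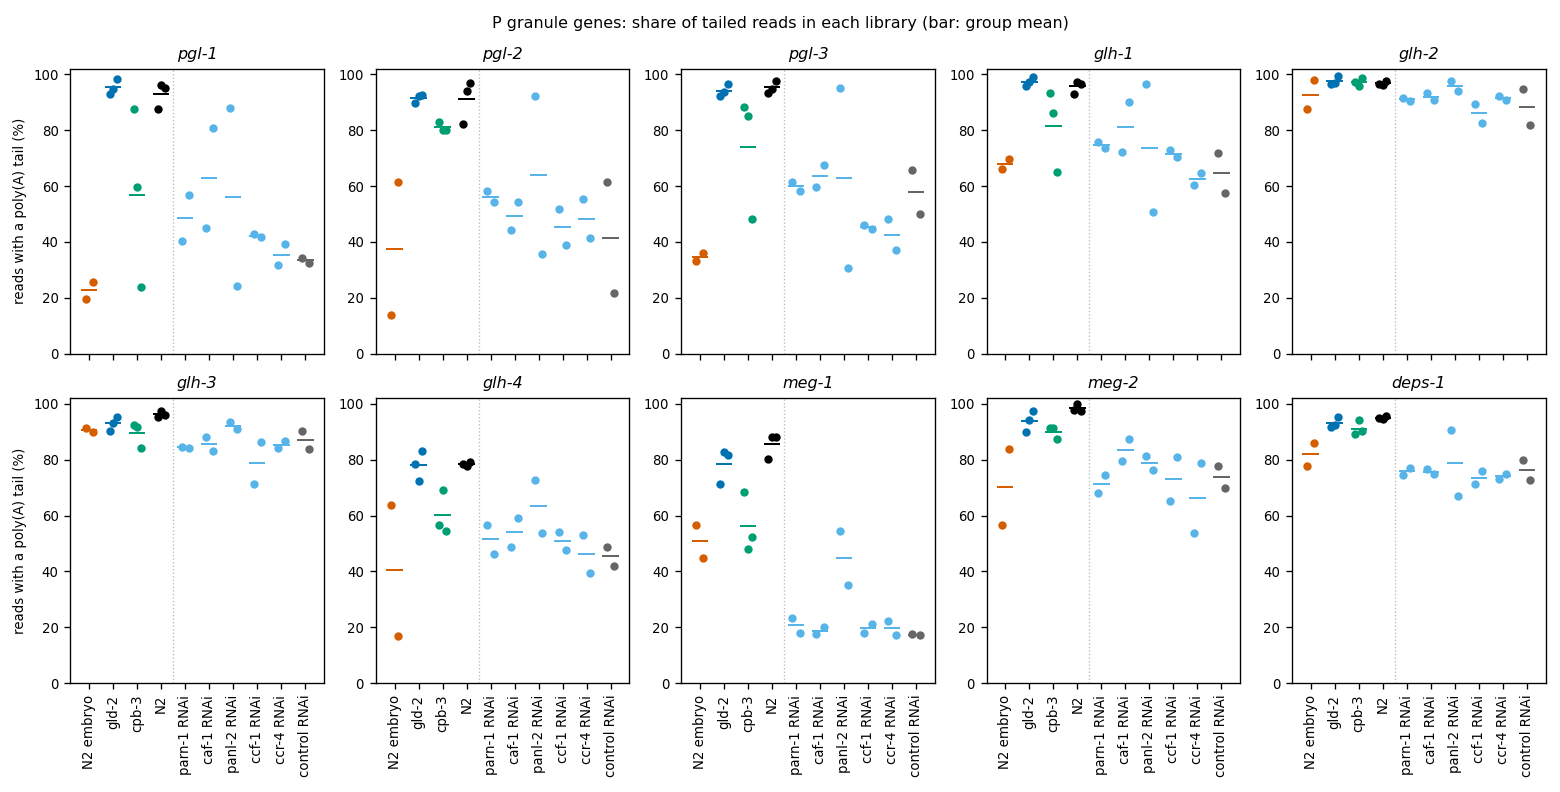
Share of the reads of each P granule gene that carried a poly(A) tail (%, 1 panel per gene) in every library; points are libraries, bars are group means, and the dotted line separates the embryos and the run 1 adults from the gld-2 worms on RNAi. Shares of pgl-1 are 19.7 and 25.6% in embryos and 23.8 to 87.5% in cpb-3 worms, against 87.6 to 96.1% in N2 worms. Under control RNAi they are 34.4 and 32.4%, while glh-2 is at 81.9% or more in every library.

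The embryos at the 1- and 2-cell stages carry maternal RNA, and were set against N2 young adults, again the same 3 libraries. The embryos were sequenced in the second run and the adults in the first, so stage and run cannot be told apart here. In level, 3 of the 10 members were higher in embryos (pgl-1, meg-1 and meg-2) and 1 was lower (glh-1), where 16.1% of the 9343 genes tested were higher and 18.3% lower (edgeR). The median log2 change was 0.30 over the members and -0.11 over all genes. Of the 8 tested muscle markers 7 were lower in embryos, which hold no muscle at these stages. Their sum was still 2320 to 2550 CPM in embryos, against 4680 to 5700 CPM in N2 adults. Of the 8 tested intestine markers 3 were higher and 2 lower in embryos. Of the 7 tested hypodermis markers 1 was higher and 3 were lower. The part of adult tissue in the embryo libraries was not tested.

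Embryos had 218 and 159 CPM of pgl-1, against 81.9, 90.4 and 80.0 CPM in N2 adults, 2.24 times the adult level (log2 change 1.17 ± 0.16 SE, adjusted p = 0.0011, edgeR). For meg-1 they had 56.1 and 37.9 CPM, against 21.3, 22.7 and 24.0 CPM in N2 adults, 2.07 times the adult level (log2 change 1.05 ± 0.21 SE, adjusted p = 0.0055, edgeR). Levels of meg-2 were 17.0 and 19.3 CPM in embryos, against 10.2, 9.85 and 12.5 CPM in N2 adults, 1.67 times the adult level (log2 change 0.74 ± 0.25 SE, adjusted p = 0.045, edgeR). All 3 genes were without overlap, which was not counted over all genes. The lower gene, glh-1, had 203 and 163 CPM in embryos, against 239, 275 and 259 CPM in N2 adults (log2 change -0.49 ± 0.15 SE, adjusted p = 0.031, edgeR). For glh-1 and for meg-2 the call was lost without N2 replicate 1, 2 or 3 or embryo replicate 2. The adjusted p over the alternatives ran from 0.0013 to 0.14 for glh-1 and from 0.019 to 0.18 for meg-2.

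The ratio of pgl-1 to glh-1, scaffold to helicase, was 1.08 and 0.972 reads in embryos and 0.111 to 0.160 in gld-2 worms, against 0.309 to 0.343 in N2 adults. These ratios count all reads, and the embryo difference was not seen in tailed reads alone. Embryos had 174 and 171 tailed reads of pgl-1 beside 543 and 479 of glh-1. N2 adults had 619, 829 and 1034 of pgl-1 beside 1919, 2556 and 3399 of glh-1. The remaining genes were not called in embryos. Levels of glh-2 were 70.9 and 69.3 CPM in embryos, against 52.6, 59.8 and 52.8 CPM in N2 adults (log2 change 0.35 ± 0.15 SE, adjusted p = 0.099, edgeR; 0.019 to 0.43 over the alternatives). Those of pgl-2 in the embryos were far apart, 18.0 and 3.1 CPM from 73 and 13 reads. The log2 change of pgl-2 was 0.26 ± 0.55 SE, 1.01 without embryo replicate 2 and -1.53 without embryo replicate 1.

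Much of the embryo RNA of these genes was read without a tail. The tailed share of pgl-1 was 19.7 and 25.6% in embryos, against 87.6, 96.1 and 95.3% in N2 adults (log2 odds -5.69 ± 0.67 SE, adjusted p = 0.0088, limma). That of pgl-3 was 33.1 and 35.9% in embryos, against 93.4, 94.8 and 97.8% in N2 adults (log2 odds -5.37 ± 0.64 SE, adjusted p = 0.0088, limma). In all, 7 of the 10 members had a lower share in embryos (pgl-1, pgl-2, pgl-3, glh-1, meg-1, meg-2 and deps-1), beside 28.3% of the 7670 genes tested, and 0 were higher. In simulated data 98 of 243 calls of this test were of unchanged genes. Limited to genes with at least 5 reads in every library, as the members had here, they were 16 of 168. The simulated libraries did not differ in overall tailed share as the real ones did, so these figures may be too low. The median difference was -3.03 in log2 odds over the members and -1.51 over all genes. With each library's odds centred on its median, 2 members were called, pgl-1 and pgl-3. Both were lost when the replicate number was used as a block, which left 0 members called (adjusted p = 0.065 for each, limma; 0.00089 to 0.065 over the alternatives). With single libraries left out these 2 calls held, while 4 members were called without N2 replicate 1, 2 without N2 replicate 2 or 3, 5 without embryo replicate 1 and 7 without embryo replicate 2. Of the 3 members not called, all helicases, glh-2 overlapped between the groups, with 87.5 and 97.9% in embryos, against 96.5, 96.3 and 97.6% in N2 adults. The shares of glh-3 were below those of N2 without overlap, with 91.5 and 90.0% in embryos, against 95.3, 97.6 and 96.1% in N2 adults (log2 odds -1.46 ± 0.63 SE, adjusted p = 0.12, limma; 0.060 to 0.90 over the alternatives). So were those of glh-4, with 63.8 and 17.0% in embryos, against 78.5, 77.6 and 79.2% in N2 adults (log2 odds -2.56 ± 0.89 SE, adjusted p = 0.074, limma; 0.0077 to 0.58 over the alternatives). In gld-2 adults of the same run on control RNAi, mean shares were 33.4% (pgl-1), 41.6% (pgl-2) and 58.0% (pgl-3). For glh-1, meg-1, meg-2 and deps-1 they were 64.7, 17.4, 73.8 and 76.5%. Embryo means were 22.7, 37.6, 34.5, 68.0, 50.7, 70.2 and 81.9%, in the same order. The part of the run in the embryo shares was not tested. The sources used here do not state what keeps a read from being counted as tailed.

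The level of pgl-1 in embryos depended on which reads were counted. Of tailed reads alone, embryos had 66.5 and 58.6 CPM of pgl-1, against 89.2, 103 and 90.2 CPM in N2 adults, so that pgl-1 was lower in embryos (log2 change -0.60, adjusted p = 0.024, edgeR; 9e-09 to 0.024 over all alternatives, the other fits with the opposite sign). Likewise pgl-3 had 20.3 and 12.7 CPM of tailed reads in embryos, against 34.6, 34.4 and 46.7 CPM in N2 adults (log2 change -1.25, adjusted p = 0.013, edgeR; 0.013 to 0.94 over the alternatives). In tailed reads pgl-2 and glh-1 were also lower and glh-2 was higher, making 5 calls, while meg-1 (0.64) and meg-2 (0.57) kept their sign without a call. With all reads 34.4% of all genes were called in either direction. The share of all genes called with tailed reads is not given here, so the 5 calls have no background beside them. Library totals of tailed reads set the scale of these values, and the median log2 change over all genes was -0.12 with tailed reads and -0.11 with all reads.

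**Figure D4:**
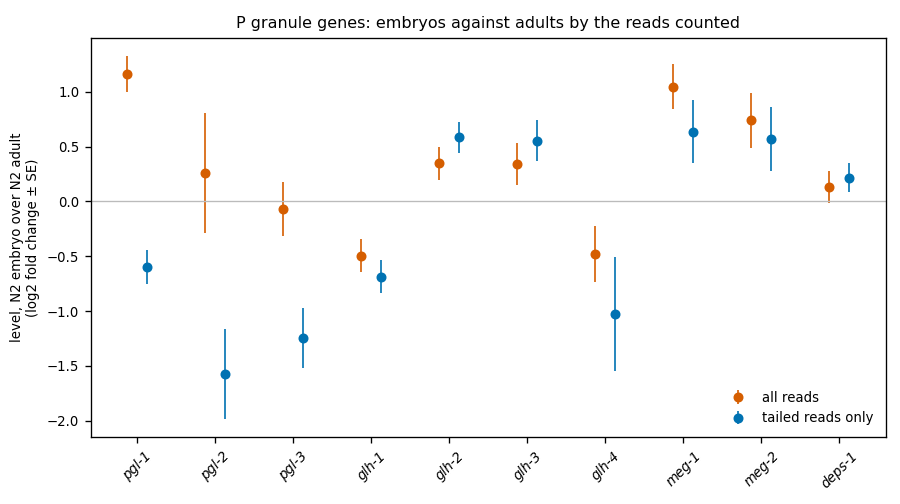
Log2 fold change of the level of each P granule gene, N2 embryo over N2 adult, with bars of 1 SE, from all reads (orange) and from tailed reads only (blue). For pgl-1 the value is 1.17 with all reads and -0.60 with tailed reads, whereas meg-1, meg-2, glh-2 and glh-1 keep their sign.

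Tails in embryos were called for 0 of the 10 members and for 0% of the 6442 genes (limma), of which 1471 had an unadjusted p under 0.05, as did 3 members. For glh-2 the mean tail was 27.5 and 28.9 nt in embryos, against 39.8, 35.9 and 38.3 nt in N2 adults (-9.81 ± 1.91 nt SE, adjusted p = 0.11, limma; 0.035 to 0.55 over the alternatives). That of glh-4 was 27.3 and 20.4 nt in embryos, from 37 and 8 tailed reads, against 40.7, 39.1 and 44.9 nt in N2 adults (-17.7 ± 3.01 nt SE, adjusted p = 0.10, limma; 0.013 to 0.55 over the alternatives). Tails of pgl-2 were 53.5 and 51.5 nt in embryos, from 10 and 8 tailed reads, against 42.3, 42.6 and 37.2 nt in N2 adults (11.8 ± 2.96 nt SE, adjusted p = 0.12, limma; 0.056 to 0.56 over the alternatives). None of these 3 genes overlapped between the groups, but overlap was not counted over all genes. When the spread was modelled on the number of tailed reads instead of on tail length, glh-2 and glh-4 were called (adjusted p = 0.035 and 0.043, limma) among 359 genes. Without embryo replicate 1 limma called 1 member, glh-4, and without embryo replicate 2 it called 3.

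Of the 19 other P granule genes, 6 were higher in embryos and 2 lower, beside 16.1% and 18.3% of all genes, with pie-1 (1.11 ± 0.14 SE, adjusted p = 0.00069), nos-2 (0.73), lotr-1 (0.85), which encodes a LOTUS-domain protein, and oma-1 (0.63) of smallest adjusted p (edgeR). In cpb-3 worms 1 of the 19 was higher, pie-1 (0.82 ± 0.22 SE, adjusted p = 0.028, edgeR), and 0 were lower, beside 7.09% and 1.69% of all genes. Tailed shares of 5 of the 19 were lower in embryos, near the 28.3% of all genes.

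The RNAi groups ask whether lowering a deadenylase in gld-2 worms changes tails. Their 5 comparisons share the same 2 control RNAi libraries. For 3 of the targets the counts were higher under their own RNAi, and the part of reads from the RNAi trigger in these counts was not tested, so they do not check the knock-downs. The parn-1 row had 42.9 and 82.5 CPM under its own RNAi, against 12.5 and 12.8 CPM under control RNAi. Likewise panl-2 had 140 to 1280 CPM, against 14.6 to 16.6 CPM, and ccr-4 had 846 to 1010 CPM, against 5.21 to 25.5 CPM. The ccf-1 row had 65.6 and 72.1 CPM under its own RNAi, against 73.0 and 91.3 CPM under control RNAi, without overlap, and no row was matched to caf-1. The directions below are those of the libraries as labelled.

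In level, 0 members and 0% of the 9908 genes were called in each of the 5 comparisons by edgeR. At an unadjusted p under 0.05 the members counted were 0 for parn-1, 0 for caf-1, 1 for panl-2, 2 for ccf-1 and 0 for ccr-4 RNAi. Over all genes 124, 228, 1582, 657 and 258 had such a p, in the same order, while DESeq2 called 1, 0, 177, 2 and 1 genes.

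The panl-2 value was that of meg-1, with 4.27 and 4.8 CPM under panl-2 RNAi, from 57 and 20 reads, against 15.6 and 26.4 CPM under control RNAi. The groups did not overlap, and the log2 change was -2.14 ± 0.34 SE (adjusted p = 0.14, edgeR; 5.9e-05 to 0.57 over the alternatives). DESeq2 called it (-2.19, adjusted p = 0.00018), and edgeR did so without a filter on low counts (adjusted p = 5.9e-05) and without panl-2 replicate 2 (adjusted p = 0.030). Of tailed reads alone there were 2.79 and 2.87 CPM of meg-1 under panl-2 RNAi, against 4.14 and 7.81 CPM under control RNAi (log2 change -1.0, adjusted p = 0.29, edgeR). The tailed share of meg-1 was 54.4 and 35.0% under panl-2 RNAi, against 17.5 and 17.2% under control RNAi.

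Under ccf-1 RNAi the tails of 1 member, meg-2, were longer, where 11.4% of the 6678 genes tested had longer and 0.15% shorter tails (limma). Tails of meg-2 averaged 34.4 and 40.2 nt under ccf-1 RNAi, against 22.9 and 19.9 nt under control RNAi, a difference of 15.9 ± 3.43 nt (SE, adjusted p = 0.028, limma). The groups were far apart, but the second control library held only 20 reads of meg-2. The call was lost without control replicate 1 (adjusted p = 0.056, limma), control replicate 2 (0.18) or ccf-1 replicate 2 (0.14), with 0.027 to 0.24 over the alternatives. It was also lost when each library was centred on its median tail (10.4 nt, adjusted p = 0.24), and the median difference over all genes was 5.31 nt.

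Of the other members, 6 differed by more than that median without passing the test: glh-2 (5.81 nt), pgl-1 (6.18 nt), meg-1 (9.79 nt) and the 3 described next, whose unadjusted p was under 0.05. For pgl-3 the tails were 51.0 and 52.7 nt under ccf-1 RNAi, against 41.6 and 40.7 nt under control RNAi (10.7 ± 3.54 nt SE, adjusted p = 0.072, limma; 0.026 to 0.40 over the alternatives). For glh-3 they were 41.5 and 43.8 nt under ccf-1 RNAi, against 35.7 and 28.5 nt under control RNAi (10.5 ± 3.88 nt SE, adjusted p = 0.093, limma; 0.037 to 0.43 over the alternatives). For deps-1 they were 36.7 and 40.4 nt under ccf-1 RNAi, against 31.9 and 28.0 nt under control RNAi (8.58 ± 2.91 nt SE, adjusted p = 0.076, limma; 0.025 to 0.54 over the alternatives). The groups did not overlap in these 3 genes, but overlap was not counted over all genes. With at least 20 tailed reads behind each length all 3 were called, while meg-2 then had too few. The median over the 10 members was 7.38 nt.

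Levels of meg-1 under ccf-1 RNAi were 34.0 and 34.6 CPM, against 15.6 and 26.4 CPM under control RNAi, and were not called (log2 change 0.73 ± 0.31 SE, adjusted p = 0.74, edgeR; 0.59 to 1.0 over the alternatives). Of the other P granule genes with a tail value, 7 of 18 had longer tails under ccf-1 RNAi, beside 11.4% of all genes. Among the 7 were nos-2 (9.20 nt), oma-1 (13.0 nt), mex-5 (13.7 nt) and mex-6 (10.6 nt). Under parn-1, caf-1, panl-2 and ccr-4 RNAi, limma called 0 members and 0% of genes in tail length. There 249, 288, 717 and 398 genes had an unadjusted p under 0.05, and 1, 0, 0 and 1 members.

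**Figure D5:**
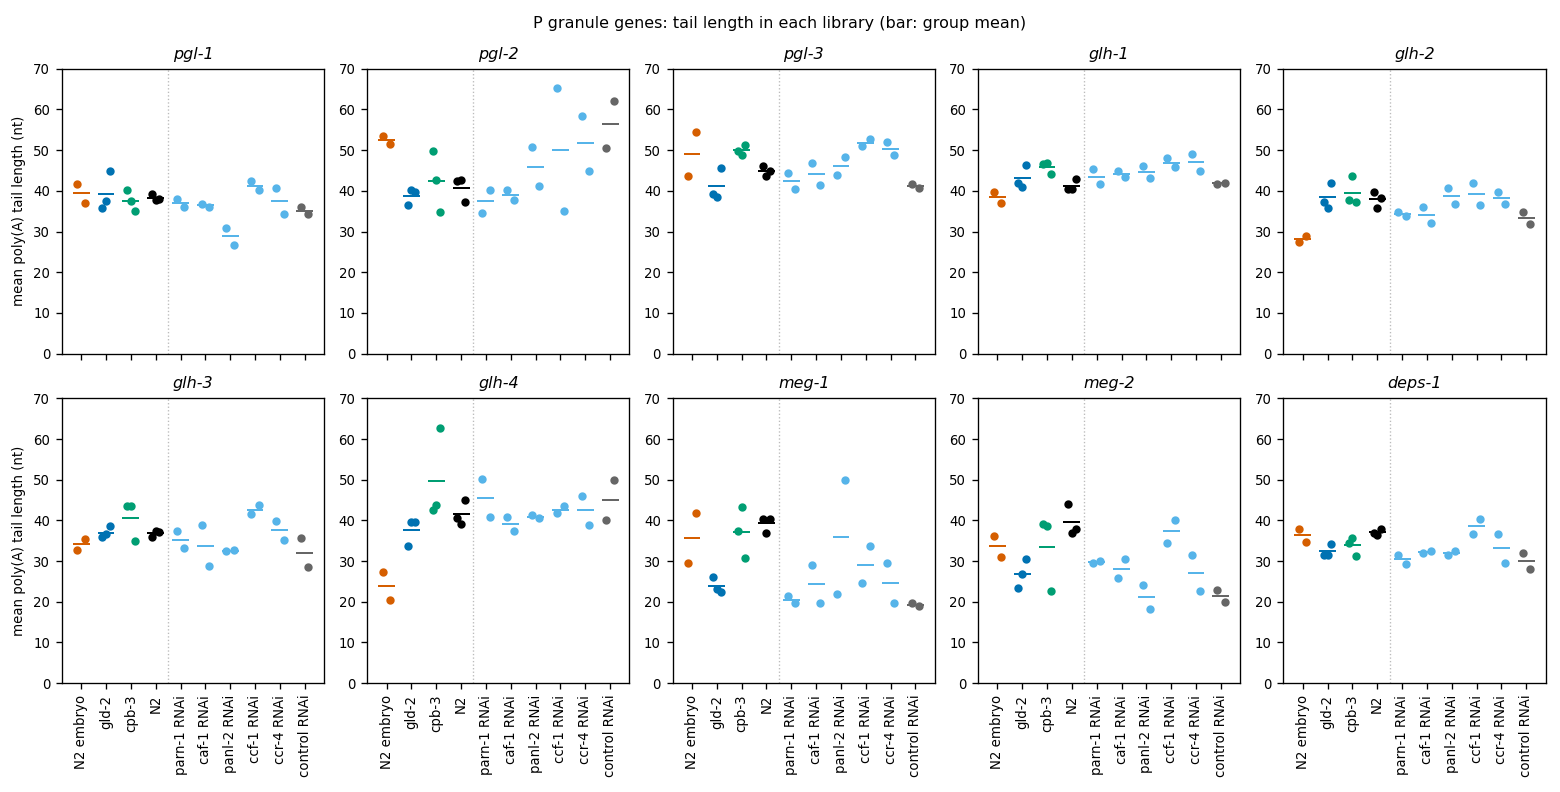
Mean poly(A) tail length (nt, 1 panel per gene) of each P granule gene in every library; points are libraries, bars are group means, and the dotted line separates the embryos and the run 1 adults from the gld-2 worms on RNAi. Tails of meg-1 and meg-2 are 22.3 to 30.4 nt in gld-2 worms, against 36.9 to 44 nt in N2 worms, and those of meg-2 are 34.4 and 40.2 nt under ccf-1 RNAi, against 22.9 and 19.9 nt under control RNAi.

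The gld-2 worms of the 2 runs differed in several members, and no test was made between them because run and RNAi feeding cannot be told apart. Levels of meg-1 were 15.6 and 26.4 CPM under control RNAi and 1.73 to 6.43 CPM in the gld-2 worms of run 1, and those of pgl-1 were 84.7 and 117 CPM under control RNAi and 44 to 54.8 CPM in run 1. Tails of meg-1 were short in both, 19.6 and 19.0 nt under control RNAi and 22.3 to 26.2 nt in run 1. The tailed share of meg-1 was 17.5 and 17.2% under control RNAi and 71.3 to 82.9% in run 1. In tailed reads alone, meg-1 had 4.14 and 7.81 CPM under control RNAi and 1.72 to 5.83 CPM in run 1, which overlapped. The summed sperm markers were 82.6 to 95.8 CPM under control RNAi and 523 to 572 CPM in run 1.

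As a description of likeness, the genes whose group means followed a member most closely were ranked by Pearson's r of log2 CPM over the 10 groups, among 1920 genes. For pgl-1 these were tag-321 (0.94), rpb-11 (0.94) and athp-2 (0.93), for pgl-3 coq-3 (0.84), ima-1 (0.84) and aak-1 (0.83), and for glh-1 his-37 (0.93), rps-26 (0.90) and nlp-27 (0.90). For mean tails, among 1787 genes, they were unc-85 (0.91), lpd-5 (0.88) and pie-1 (0.83) for pgl-1, anr-11 (0.95), skp-1 (0.94) and lap-1 (0.93) for pgl-3, and emo-1 (0.89), scrm-1 (0.87) and ech-6 (0.86) for glh-1. Between members, over the 23 libraries, r of log2 CPM was 0.77 for pgl-1 and meg-1, 0.69 for meg-1 and meg-2 and 0.79 for glh-2 and glh-3, and r of tail length was 0.82 for meg-2 and deps-1. These points share libraries, runs and groups.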

How the data were processed

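The 10 genes and the gene lists were chosen with earlier results of these data known. Genes named are the 10 members, up to 4 called genes of smallest adjusted p per germ granule list and comparison, and the 3 genes most like pgl-1, pgl-3 and glh-1. The authors deposited raw read counts and tailed-read counts per gene row, and the mean tail length of tailed reads as an average over whole lengths in nt. Bowtie, Bowtie2 2.2.4 and the build ce10 are named in the submitters' processing notes. The sources used here do not state how reads were counted or tails measured.

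Levels were tested with edgeR 4.0.16 in R 4.3.3 (quasi-likelihood, robust, TMM, filterByExpr), and DESeq2 1.42.0 served as an alternative. Tail lengths and log2 odds of tailed reads (0.5 added to each count) were tested with limma 3.58.1 (trend, robust). A length needed at least 5 tailed reads. Genes were tested with a mean of at least 20 tailed reads (tails) or 20 reads (odds). P-values were adjusted over all genes tested. The 9 libraries of run 1, the 12 RNAi libraries, and embryos with N2 (5 libraries) were fitted separately, and CPM are scaled over all 23 libraries. In simulated data for gld-2 vs N2 (8522 genes), 69 of 246 calls of the odds test were of unchanged genes, 63 of them with under 5 reads in a library. For embryo vs N2 (7670 genes) they were 98 of 243, 84 of them so. Among genes with at least 5 reads in every library, 8 of 187 (gld-2) and 16 of 168 (embryo) calls were of unchanged genes. A fit with at least 5 reads in every library was therefore added after seeing the data, as were tailed reads only and a spread modelled on tailed reads.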

Additional observations from a re-analysis of the deposited data

How the results depend on the processing

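Over 19 counts of called members, 152 of 183 alternative values stayed within 1.5 times the reported count, and of 165 alternatives to the 17 called results, 107 kept the call, 57 lost it and 1 reversed. That reversal was the level of pgl-1 in embryos, -0.60 with tailed reads only. Among uncalled results, the level of pgl-1 in cpb-3 worms was -0.37 with tailed reads only and the embryo share of glh-3 0.12 with libraries centred. Among uncalled levels in embryos, pgl-2 was -1.57 with tailed reads only and -0.019 with the replicate block, and pgl-3 was 0.0496 with the block. Counts over all genes are given for some of the settings below only. With at least 20 tailed reads per length, 2 members were called in gld-2 tails and 3 in ccf-1 RNAi tails. In gld-2 tails 813 of all genes were then called, beside 645 with the main setting. With the spread modelled on tailed reads, 4 were called in ccf-1 RNAi tails and 2 in embryo tails. With libraries centred, 0 were called in ccf-1 RNAi tails and 2 in embryo shares. A mean count of at least 100 called 3 in cpb-3 shares, among 720 genes. Under panl-2 RNAi, DESeq2 called 1 level and the fit with no filter 1. With 1 library left out, the counts ran from 2 to 4 (level) and 0 to 1 (tail) in gld-2 worms, 0 to 1 (level) and 0 to 3 (share) in cpb-3 worms, and 2 to 5 (level), 0 to 3 (tail) and 2 to 7 (share) in embryos. They ran from 0 to 1 for panl-2 RNAi levels and 0 to 1 for ccf-1 RNAi tails, and the embryo values of pgl-2 ran from -1.53 to 1.01 and of pgl-3 from -0.48 to 0.22, and the gld-2 tail difference of pgl-1 from -1.78 to 2.73 nt. A group left with 1 library was assumed to vary like the others. Replicate numbers were not taken as pairs. Same-numbered libraries had r of -0.21, 0.09 and -0.05 (gld-2), -0.34, 0.13 and -0.11 (cpb-3) and -0.02 and -0.06 (embryos). In the RNAi groups r was 0.13 to 0.25. With 2 libraries per group both numbers give the same r, and these comparisons share their controls, so pairing there was not settled. With the replicate block, 2 members were called in embryo levels and 0 in embryo shares. The cause of these shifts was not tested. Depth limits pgl-2, glh-4 and meg-2 in cpb-3 replicate 3 (10, 11 and 8 reads), meg-1 in gld-2 and panl-2 RNAi libraries, meg-2 under control RNAi and pgl-2 in embryos.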

Other observations

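A second list of 12 genes was drawn up for other perinuclear granules of germ cells, among them Z granules and mutator foci, and 10 were tested. The granule that holds each product was not checked here. In gld-2 worms 3 of the 10 were lower and 2 higher, beside 14.9% and 13.5% of all genes. The lower genes were led by mut-16 (log2 change -1.24 ± 0.19 SE, adjusted p = 9.6e-05, edgeR), which encodes the scaffold protein of mutator foci. The others were mut-15 (-0.62) and rrf-1 (-0.67), which encodes an RNA-dependent RNA polymerase. The higher ones were ego-1 (0.93), which also encodes an RNA-dependent RNA polymerase, and ekl-1 (0.65). The tails of mut-2, also named rde-3 (-8.79 nt), and mut-16 (-6.11 nt) were shorter in gld-2 worms (limma), beside 7.98% of all genes. In embryos mut-2 was 3.48 times and ekl-1 1.53 times the N2 adult level (edgeR), 2 of 10 beside 16.1% of all genes. The tailed shares of mut-15, mut-2 and ego-1 were lower there (limma), 3 of 10 beside 28.3% of all genes. In cpb-3 worms 0 of the 10 were called in level, tail or share. Under ccf-1 RNAi 1 had longer tails, rde-2 (13.4 nt), beside 11.4% of all genes.

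The ccr-4 row, a deadenylase gene, held 120 and 443 CPM in N2 embryos, against 1.99 to 3.13 CPM in N2 adults. Embryos were in run 2 and these adults in run 1, so stage and run cannot be told apart. In run 2 the gld-2 worms on ccr-4 RNAi held 846 and 1010 CPM and those on control RNAi 5.21 and 25.5 CPM, and the gld-2 worms of run 1 held 0.479 to 2.05 CPM. The part of RNAi trigger reads in these values was not tested.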
